A study of Mus musculus with 2 samples.

Results

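The Usp genes encode ubiquitin-specific proteases, the largest family of enzymes that remove ubiquitin from proteins. They were read here in the mouse embryonic stem (ES) cell line E14 with overexpressed Klf5, a zinc finger protein that sustains ES cell self-renewal. The members are all genes whose symbol starts with Usp and a digit, on probe sets annotated with that symbol alone, except Usp17la, Usp9x and Usp9y. This rule gave 48 of 18193 measured genes and 119 of 45037 probe sets. It uses names and no signal, and it takes in 2 genes that do not belong to the ubiquitin-specific protease family. Usp6nl encodes a GTPase-activating protein for Rab5, and Usp46os2 is a transcript from the strand opposite Usp46.

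The study profiled 2 clones of these cells, clone 2 and clone 1, with 1 Affymetrix mouse array for each. Both clones were kept undifferentiated in ES medium with 15% fetal bovine serum and leukaemia inhibitory factor (LIF), and both carry the Klf5 overexpression. The study set them against wild-type ES clones that were not analysed here, so no value below measures an effect of Klf5. The sources used here do not give the promoter of the transgene or the origin of the clones. With 1 array per clone no test between the clones was possible and no p-value was computed. Precision is limited by the number of arrays. Each difference is the log2 signal of clone 2 minus that of clone 1.

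Ubiquitin is a small protein that is joined to other proteins singly or in chains, where it marks them for the proteasome or changes their activity or location. Ubiquitin-specific proteases are cysteine proteases that cut these links, and so rescue substrates, recycle ubiquitin or end a signal. In ES cells, members of the family are known to act on histones H2A and H2B, on Nanog and on p53. Their signals below are those of the brightest probe set of each gene. Probe sets differ in affinity, so a signal is not set against that of another gene. In RNA of whole cultures, fewer cells with a transcript and less of it per cell cannot be told apart.

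The cells carried the signals of the labelled cell type. All 10 ES cell markers passed background in both clones, such as Nanog (12.49 in clone 2 and 12.21 in clone 1) and Pou5f1 (12.43 in clone 2 and 12.26 in clone 1). Of 10 markers of feeder fibroblasts, 2 were above background in both clones, Thy1 and Pdgfrb. Acta2 passed in clone 2 alone (6.35 in clone 2 and 5.99 in clone 1). The others, with the collagens Col1a1, Col1a2 and Col3a1 among them, passed in neither. Of 9 measured lineage markers 1, Gata6, passed in both clones. Another 3 passed in a single clone, and not in the same one. Mesp1 was not above background in clone 2 (6.04) and was 7.30 in clone 1. Sox17 (6.81 in clone 2 and 6.31 in clone 1) and Tubb3 (6.79 in clone 2 and 6.35 in clone 1) passed in clone 2 alone. Klf5 itself was 12.25 in clone 2 and 11.61 in clone 1. The background level of each array was taken from 81 probe sets that read 52 genes of adult tissues, at their 95th percentile. It was 6.13 in clone 2 and 6.40 in clone 1. Since the level is lower in clone 2, a gene can pass there alone with nearly equal signals. The SD of the difference between the clones was 0.285 over all probe sets above background, 0.353 in the lowest of 4 equal bands of signal and 0.221 in the highest.

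RefSeq promoters of GRCm38.p6 were matched for 36 of the 48 genes. The 250 bases upstream of an annotated start are shown for 4 genes that carry the results below. Usp2 and Usp12 had the largest difference among the members above background in both clones, Usp7 was read by the most probe sets, and Usp29 was above background in neither clone. Capitals mark GGGCGG, a core bound by Sp and Klf proteins, and CACCC, a core bound by Klf proteins, each on either strand.
Usp2 promoter: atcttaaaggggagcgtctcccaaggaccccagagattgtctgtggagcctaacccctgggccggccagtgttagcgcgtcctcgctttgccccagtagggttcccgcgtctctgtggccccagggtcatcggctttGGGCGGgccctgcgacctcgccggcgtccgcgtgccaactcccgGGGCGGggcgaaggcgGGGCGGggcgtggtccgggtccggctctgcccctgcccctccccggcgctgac
Usp12 promoter: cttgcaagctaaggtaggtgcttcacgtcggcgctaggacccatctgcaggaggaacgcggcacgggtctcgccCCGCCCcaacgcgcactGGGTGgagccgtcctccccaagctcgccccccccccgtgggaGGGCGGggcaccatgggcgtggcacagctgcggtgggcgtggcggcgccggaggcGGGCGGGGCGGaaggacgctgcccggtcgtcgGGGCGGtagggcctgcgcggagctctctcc
Usp7 promoter: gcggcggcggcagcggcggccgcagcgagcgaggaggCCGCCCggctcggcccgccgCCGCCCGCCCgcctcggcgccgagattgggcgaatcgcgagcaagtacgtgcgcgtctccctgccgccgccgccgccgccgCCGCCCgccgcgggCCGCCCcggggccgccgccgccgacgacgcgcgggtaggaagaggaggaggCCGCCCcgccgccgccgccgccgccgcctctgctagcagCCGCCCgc
Usp29 promoter: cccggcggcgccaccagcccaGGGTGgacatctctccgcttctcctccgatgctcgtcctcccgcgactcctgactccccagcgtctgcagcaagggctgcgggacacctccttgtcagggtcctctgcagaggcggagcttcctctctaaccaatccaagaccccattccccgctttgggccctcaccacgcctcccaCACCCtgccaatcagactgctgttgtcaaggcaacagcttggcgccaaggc
These windows lie at chr9:44084670-44084919, plus strand, at chr5:146794957-146795206, minus strand, at chr16:8738343-8738592, minus strand, and at chr7:6730333-6730582, plus strand. GGGCGG occurred 3 times in the Usp2 window, 5 times in that of Usp12, 7 times in that of Usp7 and 0 times in that of Usp29. CACCC occurred 0 times in Usp2, once in Usp12, 0 times in Usp7 and 2 times in Usp29. The G and C content was 71.6% for Usp2, 74.8% for Usp12, 85.2% for Usp7 and 64.8% for Usp29.

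Over the 36 matched windows the median G and C content was 65.4%, against 57.6% over 14452 genes of the table. The ratio of observed to expected CpG had a median of 0.851 over the Usp windows, against 0.632 over the genes of the table. The gaps were smaller among genes above background in both clones. There the median G and C content was 65.6% for Usp windows, against 60.4% for all such genes. The CpG ratio there was 0.854, against 0.763. Much of the family thus has CpG-rich starts, with exceptions such as Usp26 at 41.2% G and C, Usp40 at 42% and Usp54 at 45.2%. GGGCGG was held by 24 of 36 Usp windows (66.7%), against 49.9% of the genes of the table and 32.7% of all 32851 promoters. It was held by 21 of 29 windows of members above background in both clones (72.4%), where all such genes had 62.9%. Of the 4 matched members above background in no clone 1 held it, against 33.5% of all such genes. CACCC was held by 22 of 36 Usp windows (61.1%), against 56.9% of the genes of the table and 52.0% of all promoters. Among members above background in both clones 65.5% held it, against 56.4% of all such genes. A match is a run of letters and not a site, and the motifs overlapped in 3 of the Usp windows, those of Usp3, Usp24 and Usp32.

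Most of the family was detected in both clones. Of 48 Usp genes, 37 (77.1%) were above background in both clones, where 50.8% of all genes were. In at least 1 clone 41 passed (85.4%), against 54.5% of all genes. Of these, 4 passed in clone 2 alone (Usp20, Usp25, Usp38 and Usp43), and 0 in clone 1 alone. Of all 18193 genes 603 passed in clone 2 alone and 79 in clone 1 alone, so this lean is not particular to the Usp genes. The other 7 Usp genes passed in neither clone. The array holds a mean of 2.48 probe sets per Usp gene and 1.92 per gene of all, and the brightest of several is more likely to pass. All genes, weighted to the numbers of probe sets of the Usp genes, passed at 59.2%. Of Usp genes with 1 probe set, 7 of 11 passed (63.6%), against 36.3% of all genes with 1. Of those with 2, 12 of 18 passed (66.7%), against 57.9% of all genes with 2, and of those with 3 or more, 18 of 19 (94.7%), against 73.8%. By single probe sets 67 of 119 (56.3%) passed in both clones, against 42.5% of all. The share was thus above that of all genes in each of these counts, by an amount that depends on the count and that was not tested.

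**Figure D1:**
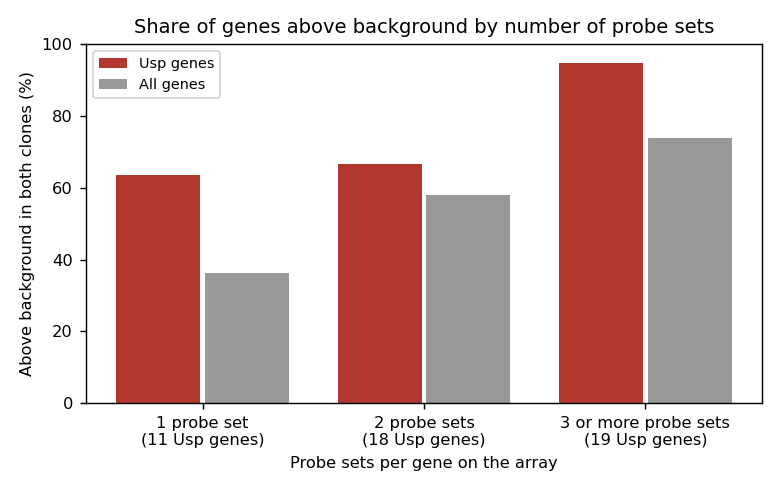
Share of genes above background in both clones (y axis, percent) by the number of probe sets per gene (x axis), for Usp genes (red) and all genes of the table (grey). With 1 probe set 63.6% of Usp genes passed, against 36.3% of all genes, and with 3 or more 94.7%, against 73.8%.

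No Usp gene differed by 2-fold between the clones at its brightest probe set, where 0.504% did of the 9918 genes that passed background in 1 clone or both. Of the 37 above background in both clones 0 reached 1.5-fold, where 3.55% of all such genes did. Among the 41 above background in at least 1 clone Usp25 did (4.67% of all such genes), but its clone 1 signal was below background and it is bounded at no less than 1.05-fold. With each array centred on its median Usp2 and Usp12 reached 1.5-fold too, where 738 of 9933 genes above background in at least 1 clone did. With probe sets averaged by gene Usp2 and Usp34 did and Usp25 did not, where 231 of 8294 such genes did.

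Directions were read over the 37 members above background in both clones, since the 4 others passed in clone 2 alone, which is also where their signal is higher. Their differences ranged from -0.25 to 0.54, with an SD of 0.189, against 0.253 over all genes above background in both clones. Their median was 0.15, against 0.08 over those genes. The signal was higher in clone 2 for 29 of 37 members (78.4%), where 62.2% of those genes were. This split moves with the processing. It was 32 to 5 with each array centred on its median (76.4% of all such genes higher in clone 2), 22 to 14 after quantile normalization (46.4%) and 23 to 14 after loess (49.8%). With probe sets averaged by gene it was 19 to 10 (65.5%), close to the 61.1% of all such genes. The median of the members lay 0.05 to 0.07 above that of all such genes under the 3 scalings, and 0.04 above it with probe sets averaged. Median centring moved the median of all genes above background in both clones to 0.17 and quantile normalization moved it to -0.02, so signs of differences under about 0.1 have no fixed direction. Of the 37 members 11 differed by under 0.1.

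**Figure D2:**
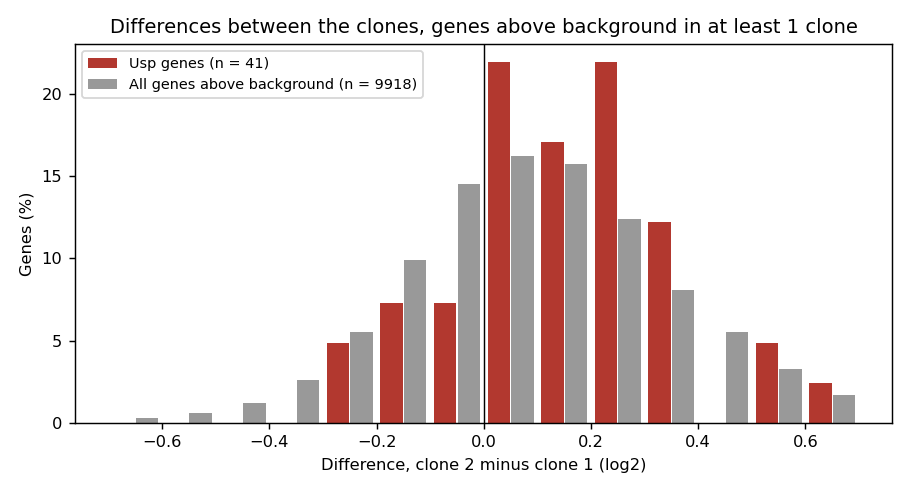
Distribution of the difference between the clones (x axis, clone 2 minus clone 1, log2, in bins of 0.1) for 41 Usp genes (red) and all 9918 genes (grey) above background in at least 1 clone, as percent of genes (y axis). The 37 Usp genes above background in both clones lie between -0.25 and 0.54. The bar at 0.6 to 0.7 is Usp25, which was above background in clone 2 alone. The axis stops at 0.7 on either side, which leaves out 2.35% of all genes and 0 Usp genes.

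The members that act on genome maintenance and the cell cycle were detected throughout, with 10 of 10 above background in both clones (50.8% of all genes) and 9 higher in clone 2 (62.2% of all genes above background in both). Quantile normalization gave 7 higher and 2 lower, with the median difference at 0.10 in place of 0.24, and loess 8 and 2, with 0.12. Usp1, which deubiquitinates the repair protein Fancd2 and the replication clamp Pcna, was 11.97 in clone 2 and 11.93 in clone 1, with a mean of 11.95 ± 0.03 (SD, n = 2). Its 3 probe sets differed by 0.04, 0.08 and 0.15. Usp48, which acts on histone H2A at sites of Brca1 activity, was 10.47 in clone 2 and 10.22 in clone 1, and its 3 probe sets gave 0.21, 0.23 and 0.25. Both genes thus gave close readings from each of their probe sets. Usp28, a stabiliser of Myc that also binds the damage factor Trp53bp1, was 9.24 in clone 2 and 9.20 in clone 1. Usp47, which stabilises the base excision repair polymerase, was 9.40 in clone 2 and 9.55 in clone 1 and was the member of this group that was lower in clone 2. Its other bright probe set was lower by a like amount, -0.18.

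The remaining genes of that group were higher in clone 2. Usp45, which acts on the repair nuclease subunit Ercc1, was 9.67 in clone 2 and 9.34 in clone 1, with differences of 0.43, 0.33 and -0.12 from its 3 probe sets. The dimmest of them, 6.33 in clone 2 and 6.45 in clone 1, lies next to the background level. Usp42, which acts on p53, was 9.39 in clone 2 and 9.14 in clone 1. Usp37, which stabilises cyclin A at the start of S phase, was 8.29 in clone 2 and 8.05 in clone 1, and its other probe set went the other way, by -0.10. Usp11, an X-linked enzyme linked to recombination repair, was 8.46 in clone 2 and 8.23 in clone 1. Usp24, which acts on the damage sensor Ddb2, was 8.17 in clone 2 and 8.03 in clone 1, with differences of 0.14, 0.30 and 0.32. None of these reached 1.5-fold.

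Usp2, which deubiquitinates cyclin D1 and Mdm2 and follows the circadian clock, differed most within that group. It was 8.28 in clone 2 and 7.74 in clone 1, averaging 8.01 ± 0.38 (SD, n = 2) and a 1.45-fold difference. Its other probe set was 7.51 in clone 2 and 6.40 in clone 1, where it did not exceed background, so it was at least 2.16-fold higher in clone 2. Both Usp2 probe sets were therefore higher in clone 2, by different amounts. That probe set was the single one among 119 to pass the 2-fold rule with the brighter clone above background, where 0.343% of all probe sets did. A further 4 probe sets differed 2-fold below background, of Usp15, Usp34, Usp40 and Usp50, with 1.16% of all probe sets at 2-fold at any signal. Those of Usp15 (1.08) and Usp34 (1.40) were higher in clone 2 and those of Usp40 (-1.13) and Usp50 (-1.09) lower.

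Among the members that act on chromatin 7 of 8 were above background in both clones, where 50.8% of all genes were. Of these 7, 5 were higher in clone 2 (71.4%, against 62.2% of all genes above background in both), with a median difference of 0.13. This median was 0.03 after quantile normalization or loess, and -0.03 with the mean over each gene's probe sets in place of the brightest. Usp7, also called HAUSP, which controls p53, Mdm2 and the methyltransferase Dnmt1, was 11.26 in clone 2 and 11.28 in clone 1, with a mean of 11.27 ± 0.01 (SD, n = 2). All 7 of its probe sets were above background in both clones, with differences from -0.22 to -0.01. All 7 were thus lower in clone 2 as deposited, but 6 were higher there after median centring. Usp22, the H2B deubiquitinase of the SAGA coactivator complex, was 10.67 in clone 2 and 10.60 in clone 1, and its other probe set differed by -0.12. Usp27x, which can take the place of Usp22 with the same partner proteins, was 6.26 in clone 2 and 6.51 in clone 1, both within 0.5 of background.

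The H2A enzymes were detected as well. Usp16, known to be needed for ES cell differentiation, was 8.74 in clone 2 and 8.53 in clone 1. Usp3 was 9.04 in clone 2 and 8.91 in clone 1, and its 3 bright probe sets differed by 0.04 to 0.14. Usp21, which also stabilises Nanog, was 8.29 in clone 2 and 8.04 in clone 1. Usp49, an H2B deubiquitinase, was 7.52 in clone 2 and 7.33 in clone 1. These 4 genes were all higher in clone 2, by 0.13 to 0.25, which is within the SD of the difference over all genes above background, 0.270. Usp44, an H2B deubiquitinase and mitotic checkpoint enzyme studied in human ES cells, was above background in neither clone, at 5.31 in clone 2 and 5.33 in clone 1. Its value rests on 1 probe set.

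The 3 members tied to RNA and the nucleolus were above background in both clones, where 50.8% of all genes were. Usp39, a splicing factor of the tri-snRNP that lacks protease activity, was 11.22 in clone 2 and 11.47 in clone 1, and both of its probe sets were lower in clone 2, with differences of -0.25 and -0.18. Usp10, a partner of the stress granule protein G3bp1, was 11.04 in clone 2 and 10.84 in clone 1. Usp36, a nucleolar enzyme, was 7.53 in clone 2 and 7.45 in clone 1, and its other bright probe set gave 0.34. The -0.25 of Usp39 was the lowest difference among the members above background in both clones, shared with Usp27x. In size it is under the SD of the difference over all genes above background, 0.270. The median over those genes is 0.09, so -0.25 lies further from their centre than its size shows. Usp39 is in the highest band of signal, where the SD was 0.221. Its difference was -0.295 after quantile normalization, -0.291 after loess and -0.16 after median centring, and it was not tested.

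Of 3 enzymes that recycle ubiquitin, 2 were above background in both clones (50.8% of all genes were), 1 higher and 1 lower in clone 2. Usp14, which trims chains at the proteasome, was 10.81 in clone 2 and 10.80 in clone 1, with a mean of 10.81 ± 0.01 (SD, n = 2). Its 4 probe sets disagreed most within the family, with differences of 0.01, -0.03, 0.19 and -0.67. The last came from the dimmest, at 6.28 in clone 2 and 6.95 in clone 1. Usp5, which takes apart free ubiquitin chains, was 9.48 in clone 2 and 9.60 in clone 1. Its paralogue Usp13 was above background in neither clone, at 5.24 in clone 2 and 5.48 in clone 1.

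Of 7 members on membranes and organelles, 6 passed in both clones, where 50.8% of all genes did. Of these 6, clone 2 had the higher signal for 4 (66.7%), close to the 62.2% of all genes above background in both. The median was 0.22, or 0.10 after quantile normalization and 0.11 after loess. Usp32, a membrane-bound enzyme of the endosomal pathway, was 9.97 in clone 2 and 9.60 in clone 1, with a mean of 9.79 ± 0.26 (SD, n = 2). Usp33, which acts in receptor recycling, was 9.37 in clone 2 and 9.01 in clone 1. Usp20, its paralogue, passed in clone 2 alone, at 6.16 in clone 2 and 5.85 in clone 1, a bound of at least 1.18-fold. Usp20 lay at the background level, so its difference was not set against that of Usp33. Usp19, which is anchored in the endoplasmic reticulum, was 9.16 in clone 2 and 9.01 in clone 1, and its other bright probe set gave -0.08. Usp8, which acts on endosomal receptors and the ESCRT machinery, was lower in clone 2, at 8.95 in clone 2 and 9.13 in clone 1. Usp30, an enzyme of the mitochondrial outer membrane, was 6.83 in clone 2 and 6.84 in clone 1. The Rab5 regulator Usp6nl was 7.53 in clone 2 and 7.25 in clone 1.

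Of 8 signalling members 6 passed in both clones, where 50.8% of all genes did. All 6 were higher in clone 2, where 62.2% of all genes above background in both clones were. After quantile normalization or loess 4 of these 6 were higher there, where 46.4% and 49.8% of all such genes were. Usp12 was 9.21 in clone 2 and 8.67 in clone 1, with a mean of 8.94 ± 0.38 (SD, n = 2) and a 1.45-fold difference. A second probe set of Usp12 gave 7.45 in clone 2 and 7.04 in clone 1. The third gave 6.34 in clone 2 and 6.27 in clone 1, above background in clone 2 alone. Usp46, a close paralogue that like Usp12 needs the cofactor Wdr48, was 8.22 in clone 2 and 8.03 in clone 1. Its other probe set was 7.70 in clone 2 and 7.11 in clone 1, a 1.51-fold difference. The 4 probe sets of this pair that were above background in both clones were thus all higher in clone 2 as deposited, by 0.19 to 0.59. At the brightest probe set Usp46 fell to 0.05 after quantile normalization and 0.075 after loess, where Usp12 gave 0.425 and 0.437.

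Usp34, a very large enzyme that acts on axin in the WNT pathway, was 10.21 in clone 2 and 9.91 in clone 1, and its other bright probe set gave 0.37. Usp15 and Usp4, paralogues that act on the TGF-beta receptor pathway, were close in the clones. Usp15 was 9.53 in clone 2 and 9.45 in clone 1, and Usp4 was 9.19 in clone 2 and 9.10 in clone 1. Usp31, linked to NF-kappa B signalling, was 6.91 in clone 2 and 6.73 in clone 1. Usp25, a paralogue of Usp28 that acts in innate immune signalling, was 6.47 in clone 2 and 5.81 in clone 1. Its clone 1 signal did not exceed background, so the difference is bounded at no less than 1.05-fold and was not ranked. Usp18, which removes the interferon-induced modifier Isg15, was above background in neither clone, at 3.71 in clone 2 and 3.59 in clone 1.

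**Figure D3:**
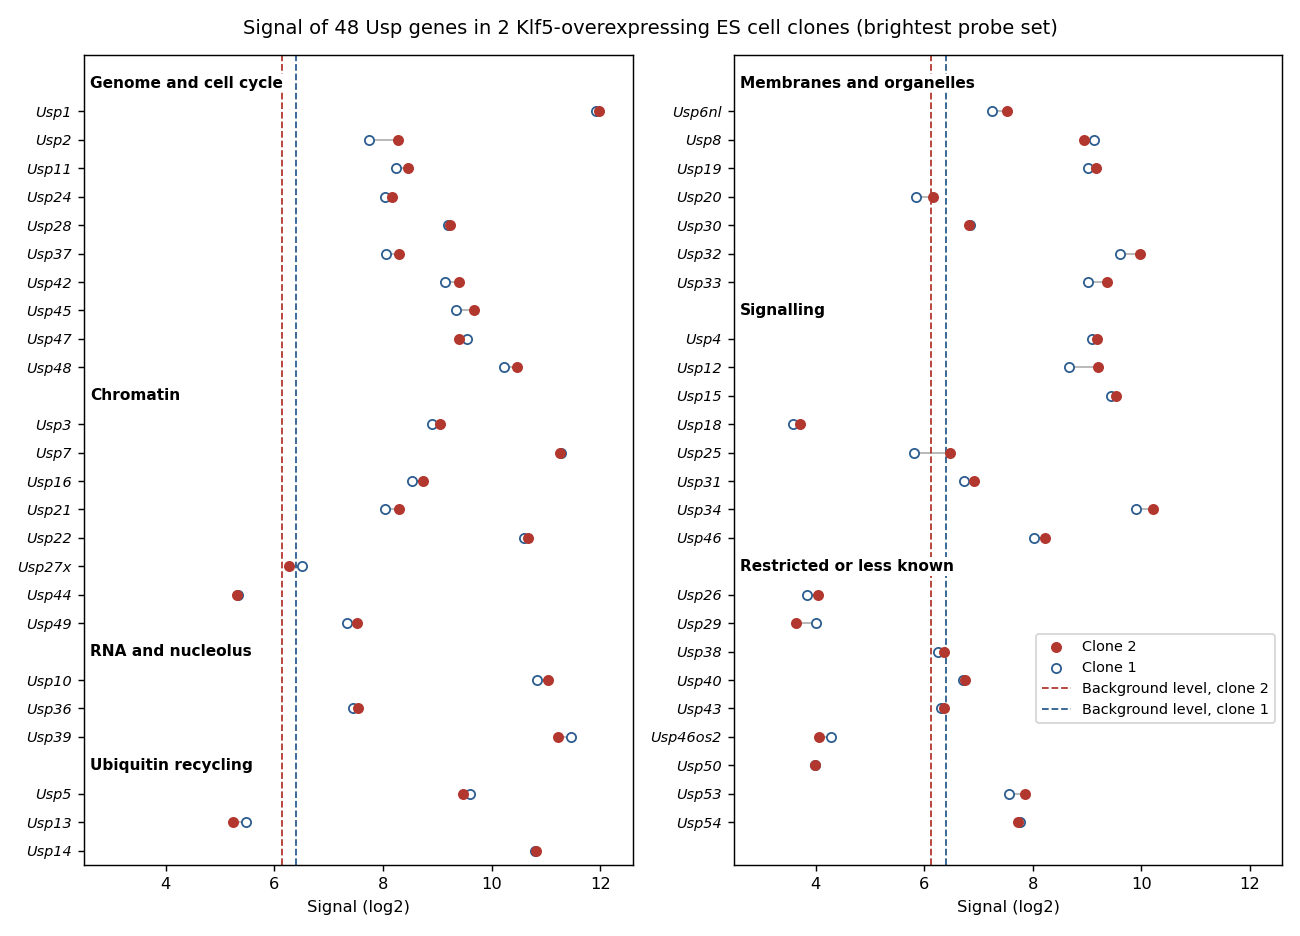
Signal of the brightest probe set (x axis, log2) of each of 48 Usp genes (y axis, in groups by known role) in clone 2 (filled red) and clone 1 (open blue). Dashed lines mark the background levels, 6.13 in clone 2 and 6.40 in clone 1. The paired points lie close together, and 37 genes lie above background in both clones.

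The tissue-restricted and less characterised members held most of the genes without signal. Usp53, a tight junction protein in mouse inner ear, was 7.85 in clone 2 and 7.57 in clone 1. Its relative Usp54 was 7.73 in clone 2 and 7.76 in clone 1, and Usp40 was 6.76 in clone 2 and 6.72 in clone 1. Usp43 (6.37 in clone 2 and 6.31 in clone 1) and Usp38 (6.37 in clone 2 and 6.25 in clone 1) passed in clone 2 alone, as did Usp20, with signals there that are under the clone 1 level of 6.40. Usp29, an imprinted gene beside Peg3, was 3.64 in clone 2 and 4.01 in clone 1. The testis gene Usp26, the opposite-strand transcript Usp46os2 and Usp50 were also above background in neither clone. Over the 7 members without signal, which include Usp13, Usp18 and Usp44, values ran from 3.59 to 5.48. With no detection calls in the file, these values are not measurements of absence.

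As deposited, probe sets of one gene mostly went the same way. Of 18 members with several probe sets above background in both clones, 13 had all of one sign (72.2%), where 48.4% of 3639 such genes did. The 5 with both signs were Usp14, Usp19, Usp22, Usp37 and Usp45. Some signs in this count rest on differences under 0.1, in Usp1 and Usp3 (0.04), Usp15 (0.08) and Usp7 (-0.01). Median centring turned 6 of the 7 Usp7 probe sets to higher in clone 2. Neither share was computed under another scaling. The spread between the highest and lowest difference within a gene had a median of 0.155, against 0.28 over all such genes. It exceeded 0.5 in Usp14 (0.86) and Usp45 (0.55).

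**Figure D4:**
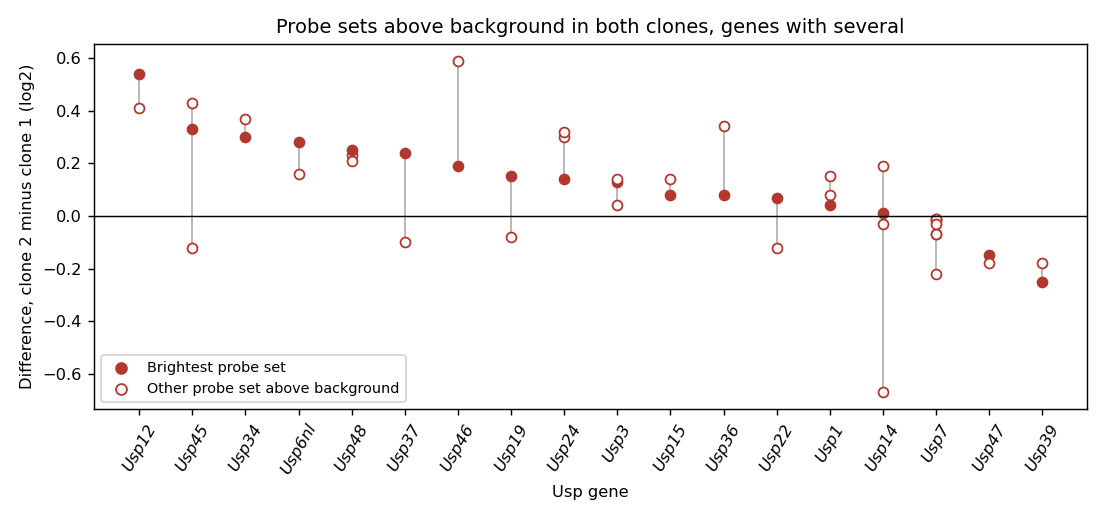
Difference between the clones (y axis, clone 2 minus clone 1, log2) of each probe set above background in both clones, for the 18 Usp genes with several (x axis). Filled points are the brightest probe set of a gene and open points the others. The 7 points of Usp7 lie between -0.22 and -0.01, and Usp14 has the widest spread, 0.86.

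Genes of the same pathway were read for comparison. Of 37 measured deubiquitinases of other families, 29 (78.4%) were above background in both clones, a share close to that of the Usp genes. A further 4 passed in clone 2 alone, as did 603 of all 18193 genes. Of the 29, clone 2 had the higher signal for 17 (58.6%), against 62.2% of all genes above background in both clones. The median of their differences was 0.05, and 0 differed 2-fold. Median centring gave 22 to 5 (75.9%, against 76.4% of all such genes) and quantile normalization 12 to 15 (41.4%, against 46.4%). Atxn3, a chain-editing enzyme of the Josephin family, was 8.47 in clone 2 and 7.66 in clone 1. Otub1, which also blocks conjugating enzymes, was lower in clone 2, at 6.57 in clone 2 and 7.08 in clone 1. The proteasome lid enzyme Psmd14 was 11.79 in clone 2 and 11.88 in clone 1.

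Of 28 measured genes for activation and conjugation of ubiquitin, 26 (92.9%) were above background in both clones, with a median of 0.06. That median was -0.01 after quantile normalization or loess. Ube2r2, a conjugating enzyme for cullin ligases, was 9.18 in clone 2 and 8.06 in clone 1, the one gene of the list to differ 2-fold (2.17-fold). Its difference of 1.12 was just under the 2-fold rule after quantile normalization, and 0.40 with probe sets averaged by gene. Of 32 measured partners and substrates of Usp enzymes, 31 (96.9%) were above background in both clones. Of these, 13 were higher in clone 2 and 18 in clone 1, and the median was -0.03. That is 41.9% higher in clone 2, against 62.2% of all such genes. The split was 21 to 8 after median centring (67.7%, against 76.4%), with a median of 0.06. It was 10 to 20 after quantile normalization (32.3%, against 46.4%), so the split itself has no settled direction. The share stayed under that of all such genes. The median of the list minus that of all such genes was -0.11 as deposited and after median centring, and -0.085 after quantile normalization. This was not tested. Atxn7l3, the SAGA subunit that activates Usp22, was 9.55 in clone 2 and 9.06 in clone 1. The TGF-beta receptor Tgfbr1 was 8.88 in clone 2 and 8.37 in clone 1, and the inhibitory Smad7 was 10.11 in clone 2 and 9.64 in clone 1. Pcna, a substrate of Usp1, was 13.25 in clone 2 and 13.34 in clone 1, and Gmps, a Usp7 partner, was 11.41 in clone 2 and 11.43 in clone 1.

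The 47 members matched in the gene table lie on 16 chromosomes, with 5 on chromosome 9, 5 on chromosome 11 and 3 on the X chromosome. Their genes are long, with a median genomic span of 53.4 kb over the members above background in at least 1 clone, against 23.5 kb over all such genes. Across the 41 members the difference between the clones correlated with gene span with Spearman's rho = 0.27, and across 9898 genes with rho = 0.16. The 41 keep the 4 members that passed in clone 2 alone, which were left out where directions were read. The 9898 also hold genes that passed in a single clone, mostly clone 2. Neither rho was computed without such genes, so how far this choice of genes shapes them was not tested. Both rho values describe genes on the same pair of arrays, which are not independent replicates. The part of gene span in the direction of the members was not tested.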

How the data were processed

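Total RNA of clone 2 and clone 1 of mouse E14 ES cells overexpressing Klf5 was read on Affymetrix mouse arrays, 1 per clone. The authors deposited a log2 signal for every probe set on each array, and the submitters' processing notes name Transcriptome Analysis Console as the software. The sources used here do not give its background correction, summarisation or normalization. Values ran from 2.21 to 14.38, from which log base 2 was inferred, and each fold depends on it. The values have 2 decimals and were used as deposited.

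Of 45037 probe sets, 34945 had 1 gene symbol in the platform annotation, 932 several and 9160 none there. Only those with 1 symbol were used to name genes. Entrez identifiers of 47 of 48 members matched the gene table of GRCm38.p6. A gene was represented by its probe set with the highest mean of both arrays. Background was taken at the 95th percentile over 81 probe sets for 52 adult-tissue genes (57 listed), such as caseins, crystallins and lymphocyte receptors. Above background means higher than that level, and a 2-fold difference also needed the brighter clone above it. Where 1 clone alone passed, the dimmer signal was raised to background and the fold is a bound. The call rule was run on simulated data with mean signals above both background levels and planted differences larger than 2-fold. That run checks the code and says nothing of calls near background.

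Both clones form 1 group with n = 2, which leaves no degrees of freedom for a test between them. Whether they were cultured or hybridised together is not given, so the SD may be partly technical. The members, the gene lists, the role groups and the background genes were chosen with earlier results of these data known. The naming rule printed values for each member above background in at least 1 clone, and of other lists up to 4 with the largest difference or highest signal. The genes of the promoter windows were chosen after their values were seen. The motifs searched were CACCC and GGGCGG on both strands, in the 250 bases before a RefSeq start. Where a gene had several starts, a single one was kept. For members it was that with the lowest coordinate, and for the genes of the table the first listed. How far this choice shapes the promoter shares was not tested. The set of all promoters was not reduced in this way. Alternatives were median centring, quantile normalization, loess (span 0.3), background at the 90th or 99th percentile, the mean over probe sets, and leaving out probe sets with _x_at or _s_at suffixes, which can bind more than 1 transcript. Python 3.11.15, pandas 2.3.3, numpy 2.4.6, scipy 1.17.1 and statsmodels 0.14.6 were used.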

Additional observations from a re-analysis of the deposited data

Results flagged for a closer look

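Probe sets annotated with several symbols were not used above, and 2 of the 4 that include a Usp gene were above background in both clones. The one shared by Usp50 and Polr2l was 10.66 in clone 2 and 10.90 in clone 1, while the probe sets of Usp50 alone were not above background. The one shared by Usp49 and Med20 was 7.98 in clone 2 and 7.56 in clone 1. Which gene of each pair gives the signal was not tested.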

How the results depend on the processing

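No paired analysis was possible because there was 1 group with 1 array per clone. The count of 37 Usp genes above background in both clones was also 37 under median centring, quantile normalization, loess and without probe sets that can bind more than 1 transcript. It was 39 with background at the 90th percentile, 33 at the 99th and 29 with probe sets averaged by gene. The count over all 18193 genes moved too, from 9236 as deposited to 10007, 8149 and 7428 in these 3 settings. Asked of 1 clone alone it was 37 to 41. The count of 0 genes at 2-fold was 0 under each of these 7 alternatives, and 1 at 1.5-fold, which was Usp25, with its clone 1 signal below background. At 1.5-fold median centring gave 3 genes of 41, Usp2, Usp12 and Usp25, where 738 of 9933 genes above background in at least 1 clone reached it. Averaged probe sets gave 2 of 32, Usp2 and Usp34, where 231 of 8294 such genes did. The median difference of 0.15 over the 41 genes above background in 1 clone or both ranged from 0.05 (quantile normalization) to 0.24 (median centring) and kept its direction, with 0.13 over all 48 genes. The sign of the difference turned for 9 of 41 members with the mean over probe sets, 6 with quantile normalization, 6 with loess and 3 with median centring. Without Usp6nl and Usp46os2 the median was 0.145. With 1 array per clone and no detection calls, differences within the SD of 0.270 over all genes cannot be told from the spread between arrays.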
